A study of Mus musculus with 4 samples.

Results

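Cathepsins are the main proteases of the lysosome, and legumain is the lysosomal asparaginyl endopeptidase that also trims several of them into their mature chains. The genes described here are the 10 named by symbol as Ctsa, Ctsb, Ctsc, Ctsd, Ctsh, Ctsk, Ctsl, Ctss, Ctsz and Lgmn, out of 55450 genes listed in the count matrices. All 10 were found. Their unique molecular identifiers (UMIs, each standing for 1 captured transcript) were summed within each library and cell class and given as counts per 1000000 UMIs of that class (CPM). The cells were hepatic nonparenchymal cells of C57B6 mice labelled wild type and 18 to 20 weeks old. The TAA mouse was injected intraperitoneally over 12 weeks with thioacetamide, a hepatotoxin that causes liver fibrosis. A second mouse, TAA+C7.5, had the same injections and from week 5 also 7.5 mg/kg of oral celecoxib, an inhibitor of cyclooxygenase 2, and TAA+C30 had 30 mg/kg. The Control mouse had normal saline. Each group was 1 mouse and 1 library, so no difference between groups has a replicate check and none was tested. Every interval given is a 95% interval of counting error within a library and covers no variation between mice. The libraries were made with a 3' chemistry, so levels are compared between cell classes and libraries and not between genes.

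Cathepsins are made as inactive proenzymes, carried to the lysosome by mannose 6-phosphate receptors, and activated there at acid pH. Cathepsin D is an aspartic protease. Cathepsins B, C, H, K, L, S and Z are cysteine proteases of the papain family, and cathepsin A is a serine carboxypeptidase that also shields other lysosomal enzymes. In macrophages and dendritic cells these enzymes digest engulfed protein, and cathepsin S cuts the invariant chain that guards new MHC class II molecules. Cystatins and stefins hold the cysteine cathepsins in check. In fibrotic liver, macrophages that carry Trem2 and Gpnmb gather along scars, while the resident macrophages are the Kupffer cells.

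After filtering, 6460 cells remained in the TAA library, 5911 in TAA+C7.5, 6062 in TAA+C30 and 5666 in Control, with 17083203 to 47347437 UMIs a library. The 10 genes and the pathway genes described below, other than Cd74, H2-Aa, H2-Ab1 and H2-Eb1, were kept out of the genes used for clustering, so they did not define the classes. The defining markers at least 2-fold above their level in the other classes were 10 of 10 for Kupffer cells, 6 of 9 for scar-associated macrophages (Spp1, Cd9 and Cd36 were not), 7 of 8 for classical and 8 of 8 for non-classical monocytes, 8 of 8 for conventional dendritic cells 1 (cDC1), 7 of 9 for conventional dendritic cells 2 (cDC2), 7 of 7 for plasmacytoid dendritic cells (pDC) and 12 of 12 for endothelial cells. The 27 Control cells that fell in the scar-associated class had no UMI of Gpnmb, so the name does not hold for them. Sub-clusters of 482 and 181 cells in this class, both led by Ms4a7 and C1qb, met only 3 of the 9 markers. The name holds weakly for those cells. The TAA+C7.5 library stood apart from the others. Its mitochondrial gene mt-Nd3 was at 0.995 CPM, against 516 to 2209 CPM in the other 3, and another gene, Gm28438, was at 464 CPM, against 0.413 to 2.27 CPM. Between 9 and 14 cell barcodes were shared by each pair of libraries. Ratios between libraries were taken where both held at least 50 cells of a class. That left no ratio for Kupffer and endothelial cells under celecoxib, with 38 and 19 Kupffer cells and 47 and 11 endothelial cells in TAA+C7.5 and TAA+C30, or for scar-associated macrophages and cDC1 in Control, with 27 and 38 cells. In sums over a class, fewer transcripts per cell and fewer cells that carry the transcript cannot be told apart.

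RefSeq promoter entries on GRCm38.p6 were found for 8 of the 10 genes, without Ctsb and Ctsh. The 250 bases before each start were searched on both strands for 3 motifs of lysosomal and myeloid genes. They were TCACGTG, the core bound by TFEB-type regulators of lysosomal genes and contained on both strands of TCACGTGA, GAGGAAGT, which PU.1-type factors bind, and GAAA followed after 2 bases of any kind by GAAA, the interferon-stimulated response element. These letters stand in 3.13%, 2.44% and 2.98% of all 32851 promoters of the same length. The 5 genes with a match are shown, with the matched letters in capitals, since they differ in which motif they hold. A match is a description of the letters and not a binding site.
Ctsa, chr2:164833743-164833772, plus strand, 30 bases: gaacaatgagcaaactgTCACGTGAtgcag
Ctsd, chr7:142387908-142387937, minus strand, 30 bases: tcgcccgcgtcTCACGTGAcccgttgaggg
Lgmn, chr12:102439093-102439252, minus strand, 160 bases before the start: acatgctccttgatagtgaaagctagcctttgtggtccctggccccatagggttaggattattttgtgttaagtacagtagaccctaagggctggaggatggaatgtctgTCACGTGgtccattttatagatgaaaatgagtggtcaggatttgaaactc
Ctss, chr3:95526626-95526785, plus strand, 160 bases before the start: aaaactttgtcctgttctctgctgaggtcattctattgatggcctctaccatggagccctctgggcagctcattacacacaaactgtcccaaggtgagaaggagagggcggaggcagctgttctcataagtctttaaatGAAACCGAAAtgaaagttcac
Ctsc, chr7:88277925-88278084, plus strand, 160 bases before the start: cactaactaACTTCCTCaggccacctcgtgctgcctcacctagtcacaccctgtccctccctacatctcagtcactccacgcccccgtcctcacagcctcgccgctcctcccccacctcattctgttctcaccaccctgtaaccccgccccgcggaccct
Ctsa, Ctsd and Lgmn carried the lysosomal core, 13, 99 and 50 bases before a start, and Ctsd carried it again 245 bases before. Ctsa and Lgmn each also had a promoter entry with an earlier start, and that entry held none of the 3 motifs. The 160 bases before the Ctsa and Ctsd starts shown overlap, at least in part, annotated exons of the same genes, so only 30 bases are printed. The Lgmn stretch lies within the annotated gene, before a downstream start. Ctss held the interferon element 21 bases before its start. Ctsc held the PU.1-type letters, read here on the opposite strand as ACTTCCTC, 151 bases before its start.

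Summed over the 10 genes, macrophages carried the highest share in every library. In Kupffer cells the genes made up 2.19% of UMIs in TAA, 2.04% in TAA+C7.5, 2.50% in TAA+C30 and 2.24% in Control. Scar-associated macrophages had 1.82%, 1.70%, 1.84% and 0.854% in the same libraries, and classical monocytes had 0.724%, 0.630%, 0.649% and 0.530%. The 27 Control cells of the scar-associated class thus lay well under the other 3 libraries. Non-classical monocytes ranged only from 0.558% in TAA+C7.5 to 0.573% in TAA and TAA+C30, with 0.569% in Control. pDC ranged from 0.656% in TAA+C7.5 to 0.708% in TAA+C30, with 0.644% in Control. cDC2 had 0.400%, 0.413% and 0.395% in the TAA, TAA+C7.5 and TAA+C30 libraries, all above the 0.241% of Control. cDC1 were the lowest of the described classes, at 0.155%, 0.152% and 0.177% against 0.120%. Endothelial cells stood at 0.616%, 0.675% and 0.583% against 0.482%. T cells, which carry little of most of these enzymes, held 0.0587% to 0.0652%.

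**Figure D1:**
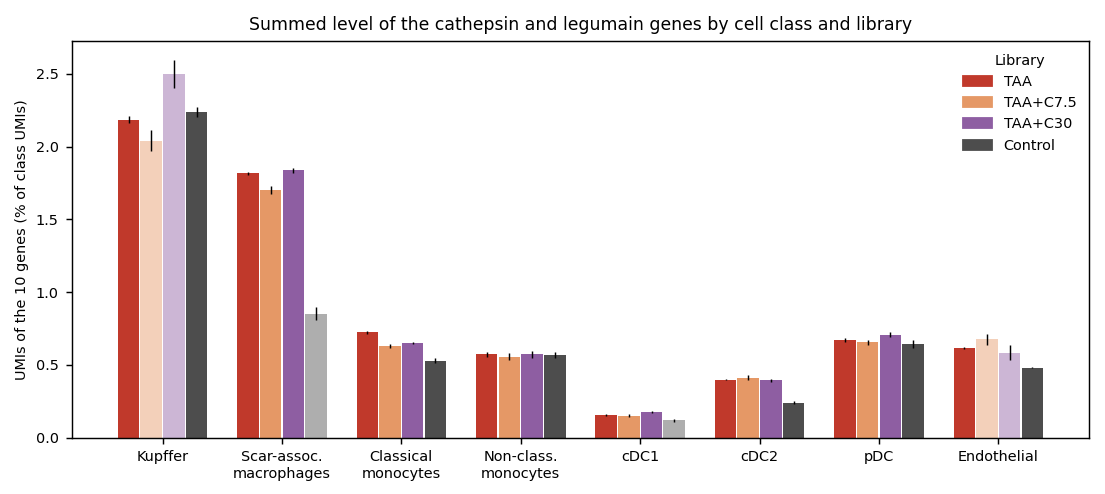
Bars give the UMIs of the 10 genes as a percent of all UMIs of a cell class (linear axis from 0), by class and library, with 95% Poisson intervals. Faded bars are classes with under 50 cells; Kupffer cells reach 2.04% to 2.50% and cDC1 0.120% to 0.177%.

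Ctsd encodes cathepsin D, the aspartic protease of the set (GRCm38 chromosome 7, 142375911 to 142388038, minus strand). Its level in scar-associated macrophages was 3353 CPM in TAA, 3448 CPM in TAA+C7.5 and 3436 CPM in TAA+C30, against 446 CPM in the 27 Control cells. In Kupffer cells it was 3468, 2447 and 3727 CPM in those libraries, against 1409 CPM in Control. In both macrophage classes the Control value was thus the lowest of the 4 libraries. Classical monocytes had 423, 405 and 473 CPM against 203 CPM in Control, which was again the lowest. Non-classical monocytes, at 241, 208, 282 and 224 CPM, and pDC, at 143, 124, 126 and 129 CPM, had Control values within the range of the other libraries. cDC2 had 86.7, 86.1 and 80.9 CPM against 24.7 CPM in Control, all below the 210.3 to 249.6 CPM of T cells. After every cell was thinned to 1000 UMIs, 71.8%, 66.7% and 75.1% of scar-associated macrophages in TAA, TAA+C7.5 and TAA+C30 had a Ctsd UMI, against 36.4% in Control. T cells, with 18.2% to 21.5%, are the background for such shares, although they may carry the transcript themselves.

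Ctsb encodes cathepsin B, a cysteine protease with both endopeptidase and carboxypeptidase activity (chromosome 14, 63122462 to 63145923, plus strand). Kupffer cells had 6304, 6626, 7493 and 7380.3 CPM in TAA, TAA+C7.5, TAA+C30 and Control, the highest of any class in every library. Scar-associated macrophages had 4399, 3958 and 4392 CPM against 1679 CPM in the 27 Control cells. Non-classical monocytes, with 2055 to 2369 CPM, stood above classical monocytes, with 888 to 1178 CPM, in all 4 libraries. Endothelial cells had 2168, 1444 and 2015 CPM against 1092 CPM in Control. cDC1, with 151 to 185 CPM, and cDC2, with 197 to 329 CPM, were the lowest of the described classes, though above the 81.4 to 105 CPM of T cells.

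Ctsl encodes cathepsin L, an endopeptidase (chromosome 13, 64359337 to 64370890, minus strand). It was highest outside the macrophages. pDC had 1911, 1884, 2030.1 and 1561 CPM in TAA, TAA+C7.5, TAA+C30 and Control, and endothelial cells had 1771, 2863, 1577 and 1853 CPM. Kupffer cells had 439, 423, 726 and 657 CPM, and scar-associated macrophages 274, 248, 306 and 85.5 CPM. In pDC thinned to 1000 UMIs, 83.7%, 86.8%, 81.8% and 68.6% of cells had a Ctsl UMI, against 1.56% to 5.20% of T cells.

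Ctss encodes cathepsin S, the invariant chain protease (chromosome 3, 95526786 to 95556403, plus strand). Its order differed from that of Ctsb. Scar-associated macrophages led in the TAA, TAA+C7.5 and TAA+C30 libraries, at 4354, 3590.1 and 4180.2 CPM, and Kupffer cells led in Control, at 3471 CPM. The Kupffer level was 2793, 1901 and 3533 CPM in the other libraries. Classical monocytes held 2295, 1876, 1797 and 1741 CPM, and cDC2 held 1423, 1322 and 1275 CPM against 626 CPM in Control. Among dendritic cells cDC2 were thus above cDC1, which had 281 to 489 CPM, in all 4 libraries, and cDC2 were above pDC in all but Control, where pDC had 651 CPM. Endothelial cells had 62.5, 9.56, 57.6 and 16.5 CPM, below the T cells of the same library at 99.3, 71.3, 81.2 and 66.5 CPM.

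Ctsk encodes cathepsin K, known as the collagen-degrading protease of osteoclasts (chromosome 3, 95499256 to 95509362, plus strand). It was at or near 0 in each of the 8 described classes, with at most 11.5 CPM, which was 1 UMI in the 11 endothelial cells of TAA+C30. Its level was not taken in the class of 13 fibroblasts or stellate cells, nor in basophils or mast cells and migratory dendritic cells. The scar-associated macrophages had 2.34, 1.14 and 5.12 CPM against 6.11 CPM, from 19, 1, 12 and 1 UMIs.

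Of the exopeptidases, Ctsc, cathepsin C, removes dipeptides and activates granule serine proteases (chromosome 7, 88278085 to 88310888, plus strand). It was highest in Kupffer cells, at 2879, 2454, 1946 and 2411 CPM in TAA, TAA+C7.5, TAA+C30 and Control, followed by scar-associated macrophages at 1357, 1110.2, 1096 and 1416 CPM. In scar-associated macrophages it was the sole gene of the set that was not lower in the Control cells, Ctsk with its 1 Control UMI apart. Ctsh, cathepsin H, is an aminopeptidase (chromosome 9, 90054152 to 90076089, plus strand). It was as high in pDC, at 1000.5, 1185, 1198 and 890.0 CPM, as in scar-associated macrophages, at 949, 1139, 1057 and 501 CPM. Ctsz, cathepsin Z, is a carboxypeptidase (chromosome 2, 174427493 to 174439039, minus strand). It had 1002, 1071 and 1260.3 CPM in scar-associated macrophages against 623 CPM in Control, and stayed between 262 and 732 CPM in the monocyte and dendritic classes. Ctsa, cathepsin A (chromosome 2, 164832873 to 164841032, plus strand), ran from 461 to 690.0 CPM in Kupffer cells and from 23.5 to 42.1 CPM in cDC1.

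Lgmn encodes legumain (chromosome 12, 102394084 to 102439813, minus strand). Kupffer cells had 3878, 3834 and 4879 CPM in TAA, TAA+C7.5 and TAA+C30, against 5675 CPM in Control, so that the Control library was the highest. In scar-associated macrophages, at 1947, 1900.4 and 2052 CPM against 934 CPM, the Control cells were the lowest. Endothelial cells held 1129, 908, 1082 and 865 CPM and classical monocytes 462, 445, 440.0 and 257 CPM. cDC1, with 59.3 to 93.3 CPM, did not exceed the 82.7 to 93.1 CPM of B cells by more than counting error.

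**Figure D2:**
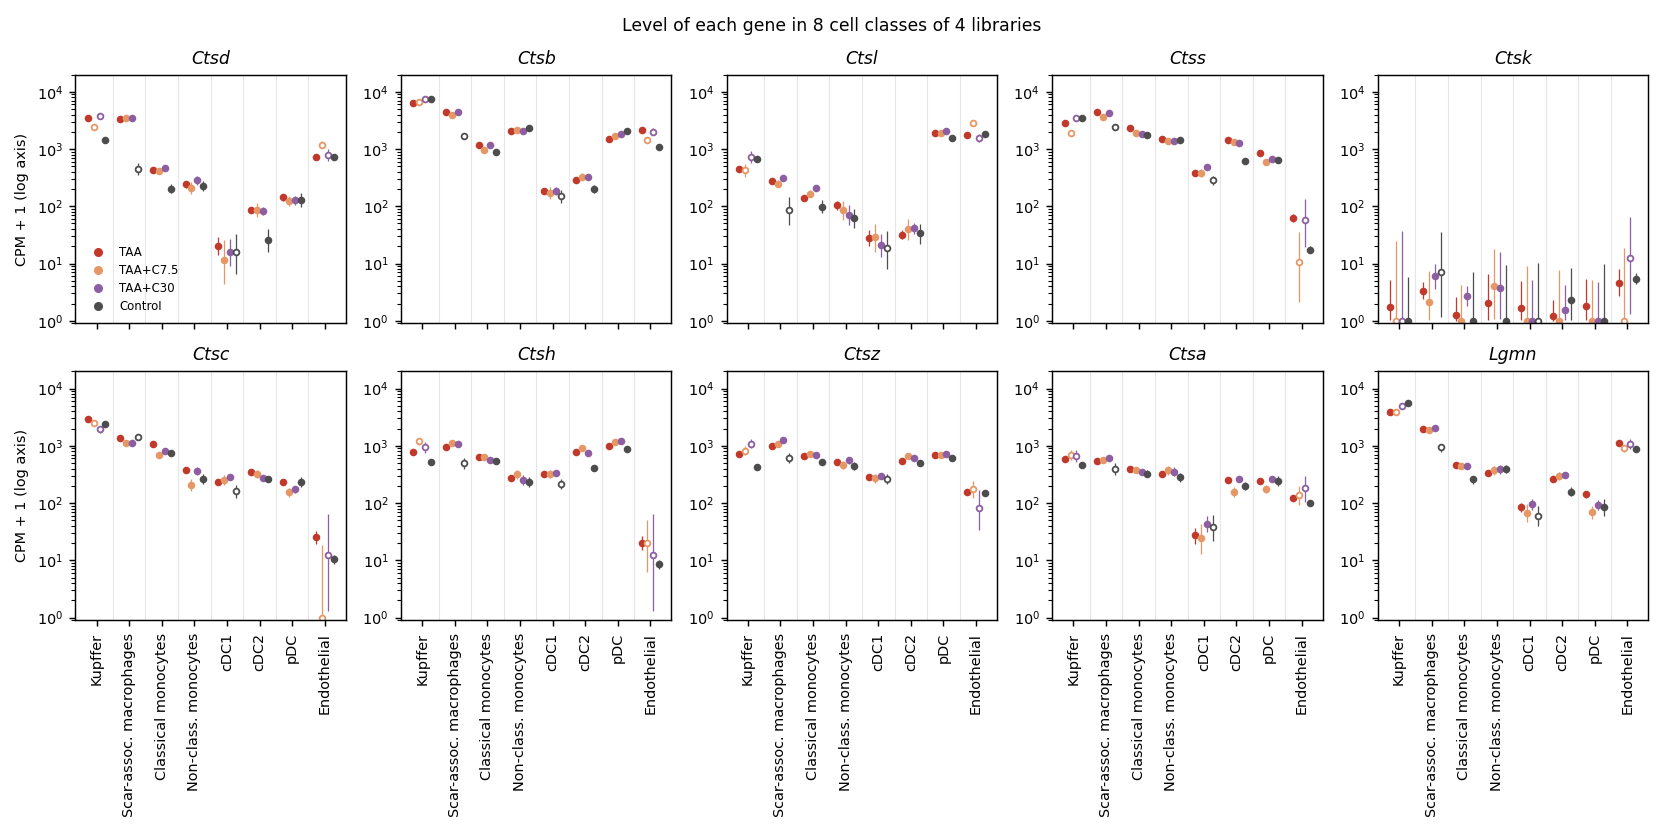
Level of each gene (CPM plus 1, log axis) in 8 cell classes, by library, with 95% Poisson intervals of counting error. Hollow points are classes with under 50 cells; Ctsd reaches 3353 to 3448 CPM in scar-associated macrophages of the 3 TAA libraries against 446 CPM in Control, while Ctsl is highest in pDC and endothelial cells and Ctsk is near 0 throughout.

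TAA was set against Control in the 6 classes with enough cells. Ratios are given as log2 with 10 CPM added to both libraries, and a gene was counted past the threshold at 1.5-fold on that scale. In every one of these classes the median over the genes with at least 10 UMIs lay above that over all genes. None of the 10 genes was past 1.5-fold lower at the main settings. Among measured genes, other processing settings carried Ctsl and Lgmn in Kupffer cells past it, to log2 -0.70 and -0.67. In classical monocytes 2 of 9 measured genes were past 1.5-fold higher and 0 lower, where 7.46% of all genes were higher and 9.28% lower. Their median was 0.40, against -0.04 over all genes. Ctsd was 2.09-fold higher (1.74 to 2.53, log2 1.03, from 1498 and 123 UMIs in TAA and Control), and Lgmn 1.80-fold higher (1.52 to 2.13, log2 0.82). Ctsc followed below the threshold at 0.53. The share of thinned classical monocytes with a UMI was 32.8% in TAA against 16.0% in Control for Ctsd, and 35.5% against 14.7% for Lgmn. Summed CPM of 6 general macrophage markers, all detected, was 6771 in TAA and 2901 in Control in this class, and their part in the result was not tested. Non-classical monocytes had 1 of 9 genes past 1.5-fold higher, with 9.8% of all genes higher and 12.6% lower, and a median of 0.19 against -0.07. That gene was Ctsl, at 103 CPM in TAA and 61.7 CPM in Control (1.66-fold, 1.08 to 2.64, log2 0.65), which rests on 101 and 27 UMIs. Summed neutrophil markers in these cells were 2808 CPM in TAA, with 9 of 10 detected, and 174 CPM in Control, with 5 of 10, and their part was not tested. With classes taken from marker scores instead of clusters, Ctsd, Lgmn and Ctss in non-classical monocytes had log2 ratios of 1.10, 0.81 and 0.68, so the low count there depends on how the class is drawn.

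In Kupffer cells 3 of 9 genes were past 1.5-fold higher and 0 lower, where 13.5% of all genes were higher and 15.3% lower, with a median of 0.26 against -0.03. Ctsd was 2.46-fold higher (2.30 to 2.63, log2 1.29), Ctsz 1.71-fold (1.51 to 1.94, log2 0.76) and Ctsh 1.52-fold (1.36 to 1.72, log2 0.60). Ctsl and Lgmn went the other way, just inside the threshold. Ctsl was at 439 CPM in TAA and 657 CPM in Control (1.33 to 1.69 times lower, log2 -0.57) and Lgmn was 1.46 times lower in TAA (1.41 to 1.52, log2 -0.55). The Kupffer cells of these libraries were not alike in make-up: of their 5 sub-clusters only 2 held enough cells of both, with 33 of 125 TAA cells and 347 of 367 Control cells. The shared sub-clusters were then given the same weights in both libraries, set by their pooled cells. Within those sub-clusters Ctsd was at 0.55, Ctsz at 0.04 and Ctsh at -0.11, and Ctsl and Lgmn were at 0.24 and 0.05. The median UMI count was 9470 per TAA Kupffer cell and 1399 per Control Kupffer cell. Summed endothelial markers there were 623 CPM in TAA, with 11 of 12 detected, and 2379.5 CPM in Control, again with 11 of 12; their part in the result was not tested.

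cDC2 had 4 of 9 genes past 1.5-fold higher and 0 lower, where 6.78% of all genes were higher and 13% lower. The median was 0.52 against -0.08. Ctss was 2.27-fold higher in TAA (2.07 to 2.50, log2 1.17), Ctsh 1.89-fold (1.68 to 2.12, log2 0.90), Lgmn 1.68-fold (1.39 to 2.04, log2 0.71) and Ctsd 3.51-fold (2.22 to 5.90, log2 1.48), the last from 371 and 19 UMIs. The Ctsd levels, 86.7 CPM in TAA and 24.7 CPM in Control, lay below the 245 and 239 CPM of T cells in those libraries. After thinning, 73.4% of TAA cDC2 and 44.1% of Control cDC2 had a Ctss UMI. Within the 3 of 6 sub-clusters that both libraries shared, with 166 of 352 and 57 of 68 cells, Ctsd stood at 1.56, Ctss at 0.70, Ctsh at 0.62 and Lgmn at 0.46. The summed general macrophage markers were 568 CPM in TAA cDC2 and 245 CPM in Control cDC2, and their part was not tested. pDC had 1 of 9 genes higher, with 10.6% of all genes higher and 11.2% lower, and a median of 0.14 against -0.03. Lgmn was at 141 CPM in TAA pDC and 85.3 CPM in Control pDC (1.65-fold, 1.15 to 2.45, log2 0.66, from 181 and 35 UMIs). In this class the macrophage markers summed to 1675 CPM in TAA, against 106 CPM in TAA+C7.5, 207 CPM in TAA+C30 and 166 CPM in Control, and their part in the Lgmn ratio was not tested. No pDC sub-cluster held enough cells of both TAA and Control for a matched value.

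Endothelial cells had 4 of 10 genes past 1.5-fold higher and 0 lower, where 6.32% of all genes were higher and 4.26% lower, with a median of 0.32 against -0.03. Ctsb was 1.99-fold higher in TAA (1.92 to 2.05, log2 0.98), from 5342 and 13009 UMIs, and 91.0% of thinned TAA cells against 61.7% of Control cells had a UMI of it. The other 3 were low in this class. Ctss was at 62.5 and 16.5 CPM (log2 1.45), Ctsc at 24.4 and 9.40 CPM (0.82) and Ctsh at 19.1 and 7.56 CPM (0.73) in TAA and Control. A Ctss UMI was seen in 5.42% of thinned TAA endothelial cells and 0.742% of Control ones, against 7.91% and 6.03% of T cells. Ctsc was in 1.81% and 0.881% of them, against 6.47% and 8.73% of T cells. With shares below those of T cells, the Ctss and Ctsc ratios are not read as expression by endothelial cells. T cells may carry both transcripts themselves, so the shares do not show that these UMIs are background. Ctsh was in 1.20% and 0.834%, against 0.514% and 0% of T cells. Ctsl and Ctsd, both high in this class, had ratios of -0.06 and -0.02. With 4 unnamed endothelial clusters added, a choice made after seeing the data, Ctsb was at 1.06, Ctss at 1.13, Ctsc at 0.54 and Ctsh at 0.53. Over all processing alternatives Ctss ran from 1.13 to 3.87, Ctsc from 0.54 to 3.49 and Ctsh from 0.40 to 2.57. Endothelial sub-clusters shared by both libraries held 34 of 169 and 1636 of 2269 cells, and Ctsb was at 0.85 in them. Most of their weight lay on 1 sub-cluster with 15 TAA and 1617 Control cells.

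**Figure D3:**
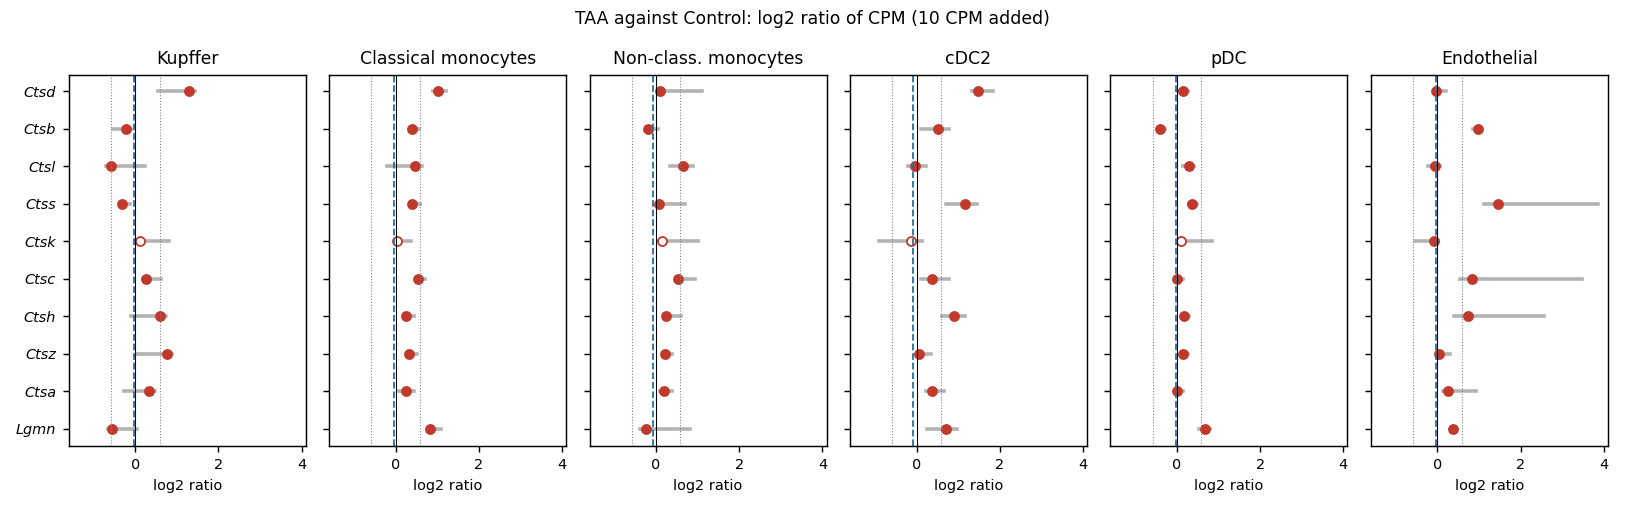
Points give the log2 ratio of CPM, TAA over Control with 10 CPM added, for each gene in 6 classes, and grey bars the range over the processing alternatives. Hollow points have under 10 UMIs in both libraries together, dotted lines mark 1.5-fold and the dashed line is the median of all genes. Ctsd stands at 1.29 in Kupffer cells, 1.03 in classical monocytes and -0.02 in endothelial cells. It is at 1.48 in cDC2, where its level is below that of T cells.

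The scar-associated macrophages could be set against the classical monocytes of the same mouse, which does not compare libraries. Ctsd was 7.93-fold higher in TAA, 8.52-fold in TAA+C7.5 and 7.27-fold in TAA+C30. Lgmn was 4.22, 4.27 and 4.66-fold higher and Ctsb 3.78, 4.05 and 3.73-fold higher in the same libraries. The remaining genes differed by less, from 1.27-fold for Ctsc in TAA to 2.33-fold for Ctss in TAA+C30, Ctsk apart. The Kupffer markers summed to 1686, 1941 and 1039 CPM in the scar-associated macrophages and to 121, 132 and 136 CPM in the classical monocytes of these libraries, and their part was not tested.

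Within the class, a Gpnmb-led set of sub-clusters met at least 6 of the 9 scar-associated markers. The other sub-clusters met only 3 or 4. This split was made after seeing the data. The Gpnmb-led set held 288, 47 and 122 cells in TAA, TAA+C7.5 and TAA+C30, and the others held 342, 95 and 230 cells. Gpnmb itself was at 1069, 925 and 932 CPM in the Gpnmb-led set and 209, 332 and 277 CPM in the others. Ctsd was at 4982, 6066 and 5365 CPM in Gpnmb-led cells and 1474, 1525 and 1962 CPM in the others. Ctsb was at 5933, 5684 and 6271 CPM in Gpnmb-led cells and 2631, 2690.1 and 2957 CPM in the others. The differences came to log2 1.45 to 1.98 for Ctsd and 1.08 to 1.17 for Ctsb, beside 0.49 to 0.97 for Ctsl and 0.55 to 0.67 for Ctsa. Ctss and Ctsh differed less, by 0.01 to 0.18 and -0.03 to 0.25. Kupffer markers moved with this split, at 2724, 3909 and 1811 summed CPM in the Gpnmb-led set, with 10, 7 and 9 of 10 detected, and 489, 496 and 449 CPM in the others. Without the Gpnmb-led sub-clusters whose next best marker set was that of Kupffer cells, 113 cells of TAA had Ctsd at 2328 CPM and Ctsb at 4055 CPM. The 33 of TAA+C30 had 1955 and 3922 CPM. Kupffer markers still summed to 880 CPM in these TAA cells, with 8 of 10 detected, and to 419 CPM in the TAA+C30 cells. Leading genes of the sub-clusters left were Gdf15, Gpnmb and Il1rn in 1 and cell cycle genes such as Top2a and Mki67 in the other. The part of these states was not tested. Ctsd in the remaining TAA+C30 cells was thus no higher than the 1962 CPM of the other sub-clusters, while the TAA cells and Ctsb in both libraries stayed above them. Only 5 such cells remained in TAA+C7.5.

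**Figure D4:**
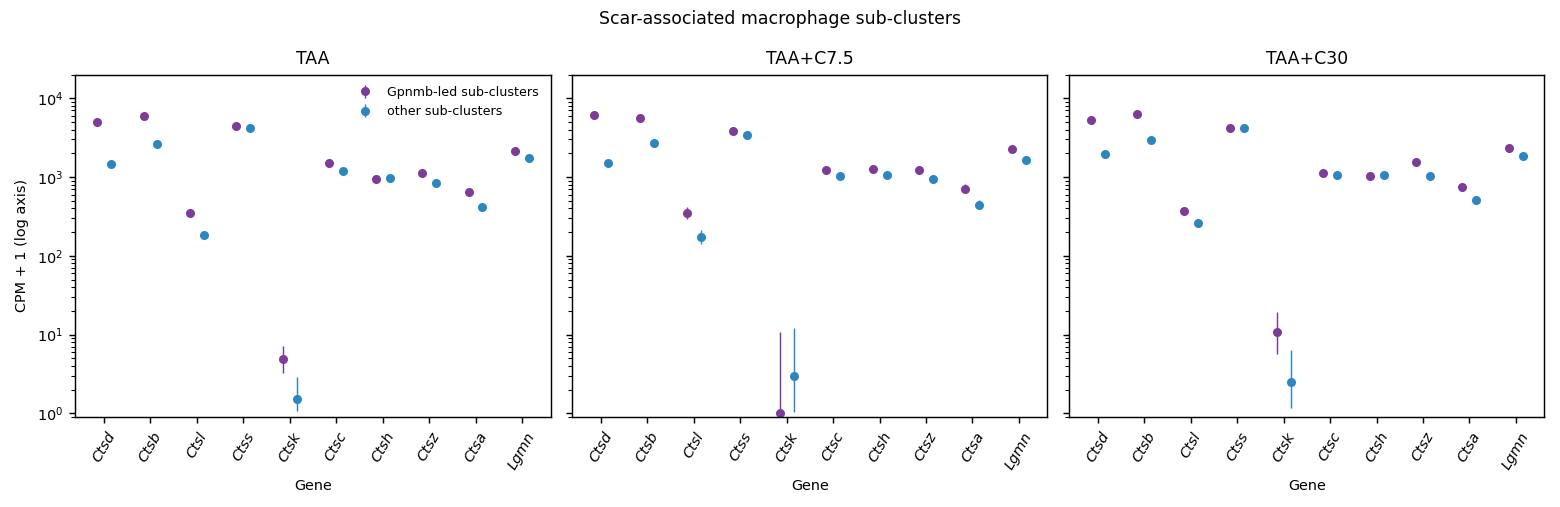
Level of each gene (CPM plus 1, log axis) in Gpnmb-led and other sub-clusters of scar-associated macrophages in the TAA, TAA+C7.5 and TAA+C30 libraries, with 95% Poisson intervals. Ctsd and Ctsb lie higher in the Gpnmb-led set in all 3 libraries, where summed Kupffer markers were 1811 to 3909 CPM against 449 to 496 CPM in the others.

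Celecoxib was compared with TAA alone at both doses, and the doses with each other, in 6 classes. The comparisons with TAA share the 1 TAA library, so a value peculiar to it enters both. With TAA+C30, none of the 10 genes was past 1.5-fold in either direction in any of the 6 classes. The share of all genes past it was 2.12% in classical monocytes, 17.9% in non-classical monocytes, 2.13% in scar-associated macrophages, 9.04% in cDC1, 4.0% in cDC2 and 7.84% in pDC. Nearest were Ctsl in classical monocytes, at 209.5 CPM in TAA+C30 and 137 CPM in TAA (1.53-fold, 1.38 to 1.70, log2 0.58), and Lgmn in pDC, at 91.2 and 141 CPM (log2 -0.58). Both lay so near the threshold of 0.585 that other settings carried them past it, to 0.63 for Ctsl with a trimmed mean of ratios and to -0.62 for Lgmn with a pseudocount of 1 CPM. With TAA+C7.5, the genes past the threshold were 1 of 9 in classical monocytes, 1 of 9 in non-classical monocytes, 0 of 10 in scar-associated macrophages, 0 of 9 in cDC1, 1 of 9 in cDC2 and 2 of 9 in pDC, all lower. The background was 4.81%, 19.0%, 5.33%, 14.2%, 9.66% and 10.2% of all genes in the same order of classes. The medians of the measured genes ran from -0.19 to 0.17 with TAA+C7.5 and from -0.03 to 0.11 with TAA+C30.

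Ctsc was the gene most often past 1.5-fold lower with TAA+C7.5. By sign alone, Ctss was lower than in TAA in every class compared, from log2 -0.01 in cDC1 to -0.48 in pDC, inside the threshold. For Ctsc the values were as follows. In classical monocytes it was at 696 CPM in TAA+C7.5 and 1066 CPM in TAA (1.53 times lower, 1.42 to 1.65, log2 -0.61), with 809 CPM in TAA+C30 and 733 CPM in Control. Non-classical monocytes had 205 CPM in TAA+C7.5 against 384 CPM in TAA (1.87 times lower, 1.44 to 2.47, log2 -0.87), from 67 and 378 UMIs, while TAA+C30 had 361 CPM. pDC had 153 CPM in TAA+C7.5 against 235 CPM in TAA (1.54 times lower, 1.25 to 1.90, log2 -0.59). The pDC of these libraries lay in different sub-clusters, with 17 of 219 TAA+C7.5 cells and 113 of 135 TAA cells in the 1 of 5 they shared, and within it Ctsc was at -0.49, inside the threshold. The scar-associated macrophages were at log2 -0.29 with TAA+C7.5 and -0.31 with TAA+C30 for Ctsc. In cDC1 Ctsc was at 252 CPM in TAA+C7.5 and 234 CPM in TAA (log2 0.10), and at log2 -0.64 with classes from marker scores. Of the other genes past the threshold, Ctsa in cDC2 was at 156 CPM in TAA+C7.5 and 256 CPM in TAA (1.64 times lower, 1.32 to 2.07, log2 -0.68). Lgmn in pDC was at 69.0 CPM in TAA+C7.5 and 141 CPM in TAA (2.04 times lower, 1.52 to 2.79, log2 -0.94), beside macrophage markers at the 106 and 1675 CPM given above, whose part was not tested. Within the shared pDC sub-cluster Lgmn was at -1.6. The TAA+C7.5 library is the one whose mt-Nd3 and Gm28438 counts stood apart, and the part of that difference in these ratios was not tested.

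**Figure D5:**
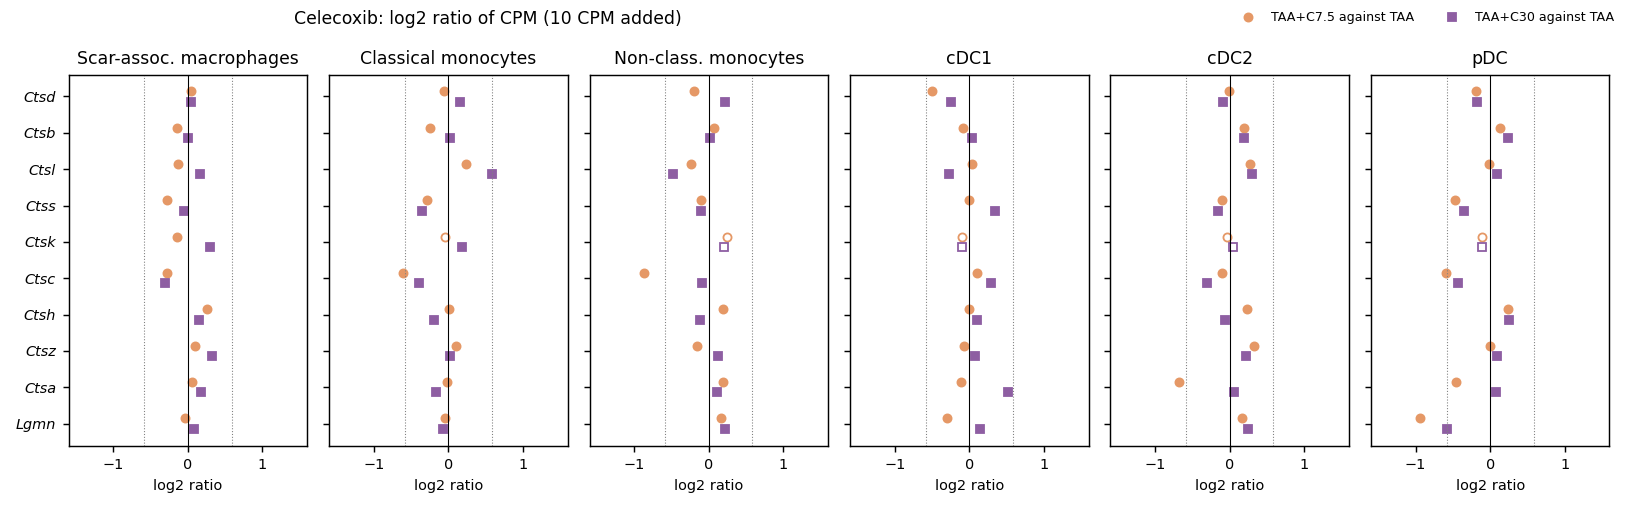
Log2 ratio of CPM with 10 CPM added, TAA+C7.5 over TAA (circles) and TAA+C30 over TAA (squares), for each gene in 6 classes; hollow symbols have under 10 UMIs in both libraries together and dotted lines mark 1.5-fold. Ctsc with TAA+C7.5 lies at -0.61 and -0.87 in classical and non-classical monocytes, and no square is past a dotted line.

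Between the doses, TAA+C30 against TAA+C7.5, genes past 1.5-fold were 3.24% of all genes in classical monocytes, 23.0% in non-classical monocytes, 5.32% in scar-associated macrophages, 14.7% in cDC1, 9.73% in cDC2 and 7.82% in pDC. Ctsc in non-classical monocytes was 1.76-fold higher in TAA+C30 (1.30 to 2.40, log2 0.79) and Ctsa in cDC2 1.71-fold higher (1.35 to 2.17, log2 0.73). Ctsa in cDC1, at log2 0.64, rested on 37 and 11 UMIs and had an interval of 0.895 to 3.89, which includes 1.

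The other genes of the pathway were followed as lists, by the same counts. Of 36 lysosomal hydrolases and their cofactors, TAA cDC2 had 5 higher and 0 lower than Control cDC2, with a median of 0.27, where 6.78% of all genes were higher and 13% lower. Npc2, a cholesterol carrier of the lysosome, was at 641 CPM in TAA and 256 CPM in Control (log2 1.29). TAA Kupffer cells had 7 higher and 2 lower, with a median of 0.15, where 13.5% of all genes were higher and 15.3% lower. There Gla, alpha-galactosidase A, was at 76.9 and 19.6 CPM (1.55) and Ids, iduronate 2-sulfatase, at 49.0 and 153 CPM (-1.46). Classical monocytes had 1 higher and 2 lower and endothelial cells 1 higher and 3 lower, with a median of -0.06 in both classes. Of all genes, 7.46% were higher and 9.28% lower in the monocytes and 6.32% higher and 4.26% lower in the endothelial cells. Ids was also lower in TAA in classical monocytes (-0.76), non-classical monocytes (-0.88) and endothelial cells (-0.82).

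Among the inhibitors, TAA non-classical monocytes had 4 of 6 measured genes higher and 0 lower, with a median of 0.90, where 9.8% of all genes were higher and 12.6% lower. Stfa2l1, a stefin, was at 58.9 CPM in TAA and 2.29 CPM in Control (log2 2.49), and Cstb, cystatin B, was at 104 and 43.4 CPM (1.09). Stefins are known from neutrophils, and the part of the neutrophil markers given above was not tested. Cstb was also higher in classical monocytes, at 321 and 179.6 CPM (0.80). Cst3, cystatin C, a marker of dendritic cells, was at 4485 CPM in TAA cDC2 and 2070.4 CPM in Control cDC2 (1.11). The regulators of lysosome biogenesis were near even or lower, with a median of -0.32 to -0.09 over the 6 classes. Tfeb, the factor that drives lysosomal genes, was at 28.5 CPM in TAA and 54.4 CPM in Control in classical monocytes (-0.74), and at 44.7 and 84.6 CPM in non-classical monocytes (-0.79). Of the 13 genes listed for enzyme sorting, at most 2 were higher and at most 3 lower in any class. Subunits of the V-ATPase, the proton pump that acidifies the lysosome, had at most 2 of the 16 listed higher and 0 lower. Over the 6 classes, 6.32% to 13.5% of all genes were higher and 4.26% to 15.3% lower. Of the lysosomal membrane genes, 3 of 10 were higher in pDC, 2 of 10 were higher and 1 lower in Kupffer cells and 2 of 11 higher and 0 lower in endothelial cells. Of all genes, 10.6%, 13.5% and 6.32% were higher in these classes, and 15.3% were lower in Kupffer cells. The tetraspanin Cd63 had 96.5 CPM in TAA Kupffer cells and 5.23 CPM in Control ones (2.81). In endothelial cells its values were 112 CPM for TAA against 8.73 CPM for Control (2.70). Of the sorting genes, Scarb2, the receptor of glucocerebrosidase, was lower in TAA endothelial cells, at 274 and 623 CPM (-1.16).

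The MHC class II genes and their loading partners include the invariant chain, which cathepsin S cuts. They were higher in TAA than in Control for 5 of 11 genes in cDC2, 6 of 11 in endothelial cells and 4 of 9 in non-classical monocytes. The counts were 3 of 11 in pDC, 3 of 10 in Kupffer cells and 0 of 11 in classical monocytes, and none was lower in any of the classes named. Of all genes, 6.78%, 6.32%, 9.8%, 10.6%, 13.5% and 7.46% were higher in those classes in that order. H2-DMb1, a subunit of the peptide editor, was at 796 CPM in TAA cDC2 and 355 CPM in Control cDC2 (log2 1.14). Cd74, the invariant chain, was at 319 CPM in TAA and 133 CPM in Control endothelial cells (1.20). Under celecoxib, in classical monocytes, 5 of 11 class II genes were lower with TAA+C7.5 than with TAA, with a median of -0.57, and 7 of 11 with TAA+C30, with a median of -0.79, where 4.81% and 2.12% of all genes were past the threshold in either direction, beside medians of -0.05 and -0.03 for the cathepsins and Lgmn. Both comparisons share the TAA library. H2-Aa was at 885 CPM in TAA+C7.5 and 1877 CPM in TAA (-1.08), and at 728 CPM in TAA+C30 (-1.35). Ctss in the same cells was at 1876 and 1797 CPM in TAA+C7.5 and TAA+C30 and 2295 CPM in TAA. In scar-associated macrophages no class II gene was past the threshold at either dose.

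The genes most like each member were found from Pearson's r of log2(CPM + 10) over 51 points of class and library with at least 50 cells, among 8737 genes. The points share libraries and cell classes, so r is a description. Ctss lay closest to Ly86 (0.91), Rassf4 and Pld4 (0.90 each), and Ctsh to Ly86 (0.89), Ifi30 and Unc93b1 (0.88 each). Lgmn lay closest to Sdc3 (0.92), Renbp (0.91) and Tmem106a (0.90), and Ctsb to Grn (0.90), Sirpa and Cln8 (0.88 each). Ctsl, with its pDC and endothelial levels, lay closest to Peli2 (0.85), Gpr146 and Ndst1 (0.84 each). Between members, r was highest for Ctsz and Ctsh (0.89), Ctss and Ctsc (0.87) and Ctsb and Ctsa (0.84), and lowest for Ctsh and Ctsd (-0.08) and Ctsk and Ctsh (0.047).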

How the data were processed

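Single-cell 3' libraries of hepatic nonparenchymal cells, 1 mouse each, were deposited by the authors as whole-number UMI counts per gene and barcode, made with Cell Ranger 3.1.0 on mm10, per the submitters' processing notes; filters before deposit are not given in the sources used here. Of 6915, 6117, 6284 and 6583 barcodes in TAA, TAA+C7.5, TAA+C30 and Control, those with under 200 genes (210, 10, 59 and 117), over 20% mitochondrial UMIs (193, 24, 47 and 678) or a Scrublet doublet call (52, 172, 116 and 122) were left out, which left a median of 4571, 1967, 3100.5 and 3357 UMIs a cell. All libraries were clustered together without batch correction (Scanpy 1.11.5, leidenalg 0.10.2, 2000 variable genes, 30 principal components), with 144 member and pathway genes kept out of the variable genes (Cd74, H2-Aa, H2-Ab1 and H2-Eb1 stayed in). Clusters were named from fixed markers with at least 3 of them detected and 2-fold higher; these limits, and 1 override of a progenitor cluster, were set after seeing the clusters. Of 72 final clusters 13 stayed unnamed and entered no class, and 88.2% of cells had the same class by marker score. The members and lists were chosen with earlier results of these data known.

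The counts were summed per class and library as CPM. Exact Poisson intervals of levels, conditional binomial intervals of ratios and Clopper-Pearson intervals of shares (SciPy 1.17.1, 95%) cover counting error only. No test was run, since each group is 1 mouse. A ratio needed 50 cells in both libraries, and a gene counted as measured at 10 UMIs in both together. All 10 members are reported; of a pathway list, up to 2 genes with the highest and up to 2 with the lowest ratio in a class were eligible for naming, at 50 CPM and 30 UMIs in the higher library. For likeness, the 3 genes with the highest r were taken per member. The functions for ratios and intervals were tested on simulated data. Gene positions are those of GRCm38 (mm10) in the GENCODE annotation, and promoter sequences are from RefSeq on GRCm38.p6. The alternatives on counts were a pseudocount of 1 CPM, no filter on low counts, no mitochondrial filter, cells of at least 1000 UMIs, a mean over cells and a trimmed mean of ratios. Others were classes from marker scores and shared sub-clusters with the same weights in both libraries, set by their pooled cells. Added later were unnamed endothelial clusters and scar-associated sub-clusters without those whose next best marker set was that of Kupffer cells. Items withheld from the named genes are not reported here.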

Additional observations from a re-analysis of the deposited data

Results flagged for a closer look

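For Ctsl and Lgmn the ratio of TAA to Control had opposite signs in different cell classes, with values over 0.5 on the log2 scale in both directions. With 1 library per group the difference between classes was not tested. Ctsl was higher in TAA in non-classical monocytes (log2 0.65) and lower in Kupffer cells (log2 -0.57). Lgmn was higher in TAA in classical monocytes (log2 0.82), cDC2 (log2 0.71) and pDC (log2 0.66), and lower in Kupffer cells (log2 -0.55). Within the Kupffer sub-clusters that TAA and Control shared, Ctsl was at log2 0.24 and Lgmn at log2 0.05, so that the opposite sign was not seen there. The Ctsl ratio in non-classical monocytes rests on 101 UMIs in TAA and 27 UMIs in Control. Changes of sign that passed 0.5 in only 1 direction were also seen. Ctss was at -0.31 in Kupffer cells and 1.45 in endothelial cells, and Ctsb at -0.41 in pDC and 0.98 in endothelial cells. The Ctss ratio in endothelial cells is the low-level one that was not read as expression by these cells.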

How the results depend on the processing

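The median log2 ratio of the members over TAA and Control stayed above 0 in all 6 classes under every alternative run. No paired analysis was possible because each group is 1 library, and for the same reason no library could be left out. A trimmed mean of ratios, which removed a shift of -0.27 to 0.03 between TAA and Control, moved the median to 0.58 in classical monocytes, 0.39 in Kupffer cells and 0.79 in cDC2. It moved the median of TAA+C30 against TAA+C7.5 to 0.22 in classical monocytes and 0.25 in scar-associated macrophages. Classes from marker scores gave 0.68 in non-classical monocytes and 0.78 in cDC2 for TAA against Control, -0.26 in non-classical monocytes and -0.64 in cDC1 for TAA+C7.5 against TAA, -0.12 in classical monocytes and 0.035 in scar-associated macrophages for TAA+C30 against TAA, and 0.27 in non-classical monocytes for TAA+C30 against TAA+C7.5. Shared sub-clusters with the same weights in both libraries gave 0.043 in Kupffer cells, 0.23 in cDC2 and 0.61 in endothelial cells for TAA against Control. They turned Ctsh in Kupffer cells to -0.11. Without the mitochondrial filter the Kupffer median was 0.34. A mean over cells gave 0.11 in non-classical monocytes for TAA+C7.5 against TAA, and turned Ctsa in cDC1 between the doses to -0.051. With the unnamed endothelial clusters added, chosen after seeing the data, the endothelial median was 0.39. The causes of these moves were not tested. A pseudocount of 1 CPM, no filter on low counts and cells of at least 1000 UMIs kept all 24 medians within their counting error. Depth limits Ctsk, Ctsl in non-classical monocytes and Lgmn in pDC, which rest on few UMIs.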

Other observations

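Ctsj, a cathepsin gene of rodents outside the 10 members, was seen in endothelial cells of the libraries with TAA and not in those of Control. It had 140 UMIs in 41 of 169 TAA endothelial cells (56.8 CPM), 4 UMIs in 2 of 47 TAA+C7.5 cells (19.1 CPM) and 11 UMIs in 4 of 11 TAA+C30 cells (127 CPM). The 2269 Control endothelial cells held 0 UMIs, which allows up to 0.252 CPM at 3 counts in the class. The TAA level was 226-fold above that limit, without the counting error of its 140 UMIs. No fold is given for the 47 TAA+C7.5 and 11 TAA+C30 cells. The TAA UMIs of Ctsj were spread over 4 endothelial sub-clusters. Endothelial sub-clusters shared by TAA and Control held 34 of 169 TAA cells and 1636 of 2269 Control cells, and the part of this make-up was not tested.

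In classical monocytes, Prtn3, the gene of a granule protease that cathepsin C activates, was at 114 CPM in TAA and 19.8 CPM in Control (log2 2.05), and at 195 CPM in TAA+C30 (log2 0.73 against TAA). A cluster led by granule protease genes had been left out of this class. Flcn, a regulator of lysosomal signalling, was at 69.0 CPM in TAA non-classical monocytes and 34.3 CPM in Control ones (log2 0.84), opposite to Tfeb. Lrp1, an endocytic receptor, was at 138 CPM in TAA cDC2 and 49.4 CPM in Control cDC2 (log2 1.32).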
